A study of Rattus norvegicus with 11 samples.

Results

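The 32 genes described here make, sense, move and dispose of cholesterol, and they were measured in rat bone marrow mesenchymal stem cells (BMSCs), the adherent marrow stromal cells that can form bone and fat. They were taken by name from an RNA-seq table of 32883 gene lines and fall into 4 roles: 18 enzymes of cholesterol synthesis, 5 sterol sensors and regulators, 2 sterol transporters, and 7 genes of oxysterol metabolism, esterification, efflux and the liver X receptors (LXRs). The 3 groups compared, all at day 3, were IRDC with 4 libraries, imDC with 3 and control with 4. The series text names BMSCs exposed to CM of mDC at 8 Gy or 0 Gy, which reads as medium conditioned by irradiated or unirradiated dendritic cells. The library titles carry only the names IRDC and imDC, so the match of IRDC to 8 Gy and of imDC to 0 Gy rests on those names. All 3 groups are labelled with the same cell type, and the sources used here do not give the medium of the control cells, the number of medium preparations, or the strain, age or passage of the cells. The libraries are called biological replicates with no word on separate animals or cultures, so what the p-values weigh is library-to-library variation, part or all of which may be technical.

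As background, cells make cholesterol from acetyl-CoA through mevalonate, isoprenoids, squalene and lanosterol. When sterol in the endoplasmic reticulum is low, SCAP carries the transcription factor SREBP2 to the Golgi, where it is cut free to switch on nearly every gene of that route. INSIG proteins hold SCAP back when sterol is plentiful. When sterol is in excess, oxysterols bind the LXRs, which raise efflux pumps such as ABCA1 and ABCG1 and the ubiquitin ligase MYLIP. In marrow stromal cells this lipid economy is best known from their differentiation into fat.

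Depth, taken from whole reads recovered from the table, was 17780428 to 25521204 reads per library. Levels are FPKM, fragments per kilobase of gene scaled to sequencing depth, so they can be compared between genes. Changes are differences of log2(FPKM + 1) with their standard errors (SE), which understate the change of genes with low levels. They were tested with limma over 12521 genes (those reaching 1 FPKM in 3 or more libraries), with Benjamini-Hochberg adjusted p under 0.05 as the threshold. All 32 genes were among those tested. Most genes passed in every comparison, which sets a high background: 76.0% between IRDC and control, 63.2% between imDC and control and 58.8% between IRDC and imDC. The median log2 change over all genes tested was -0.18 for IRDC against control, -0.09 for imDC against control and -0.09 for IRDC against imDC. Of the genes called between IRDC and control, 3070 were higher and 6447 lower. That split was 4586 and 4546 under a TMM-like rescaling, and 4197 and 4873 under quantile normalization. The 2 comparisons with control share the same 4 control libraries, so their values are given side by side and the direct comparison of IRDC with imDC tests whether they differ.

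The labelled cell type carried stromal transcripts at high levels, with Col1a1 and Thy1 leading a list whose summed level was 4377 to 4450 FPKM in IRDC, 4313 to 4354 in imDC and 3515 to 3642 in control. Col1a1 made up most of that sum, with 2448 to 2499 FPKM in IRDC, 2361 to 2411 in imDC and 1716 to 1791 in control. Counts of markers in each direction are to be read beside the shares of all genes tested. These shares were 51.5% lower and 24.5% higher in IRDC than in control, and 40.1% and 23.1% in imDC than in control. Of the 8 stromal markers tested, IRDC exceeded control for 5 and was lower for 3. For the same 8, imDC exceeded control for 4 and was lower for 4. Among those higher, Nt5e had 160 to 169 FPKM in IRDC, 82.0 to 83.4 in imDC and 21.1 to 23.5 in control. This was the largest change of the 8 in both comparisons with control. Among those lower, Vcam1 had 5.40 to 6.34 FPKM in IRDC, 16.3 to 17.6 in imDC and 31.8 to 33.8 in control, and Pdgfrb had 112 to 119 FPKM in IRDC, 127 to 130 in imDC and 184 to 190 in control. Lepr, a marker of marrow stroma in mice, was under 1 FPKM in every library. Transcripts of macrophages and dendritic cells were present in all groups, summing to 558 to 566 FPKM in IRDC, 901 to 932 in imDC and 945 to 965 in control. Of the 14 markers of that list with levels high enough to test, 10 were lower and 3 higher in IRDC than in control, while Flt3, Ccr7 and Cd86 were near 0 in every library (Cd86 at most 0.383 FPKM). Between imDC and control the split was 7 lower and 5 higher. Lyz2 alone had 182 to 189 FPKM in IRDC, 485 to 508 in imDC and 515 to 528 in control, and weighs heavily in the sum. The 3 markers higher in IRDC than in control were Cd14, Mrc1 and Itgam. Mean levels of Cd14 were 89.1 FPKM in IRDC, 74.5 in imDC and 47.9 in control. Those of Mrc1 were 77.9, 69.2 and 47.9 FPKM, and those of Itgam 7.12, 7.52 and 5.72 FPKM, in the same groups. Summed adipocyte markers were 41.2 to 44.4 FPKM in IRDC, 140 to 142 in imDC and 227 to 242 in control. Of the 8 adipocyte markers 5 could be tested, and all 5 were lower in IRDC than in control, mainly through Fabp4, Lpl, Cebpa and Pparg, while Plin1, Cidec and Lep were near or below 1 FPKM throughout. The 3 endothelial markers measured summed to less than 1 FPKM in every library. In bulk RNA, fewer cells of a type and less RNA per cell cannot be told apart.

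All 18 synthesis enzymes were lower in IRDC than in imDC, and lower in imDC than in control, with no overlap between the libraries of any 2 groups. Such separation, with the same group lower, was seen in 47.6% of all genes tested between IRDC and control, 39.8% between imDC and control and 38.5% between IRDC and imDC. Summed over the 18 genes, the level was 221 to 227 FPKM in IRDC, 508 to 511 FPKM in imDC and 1192 to 1233 FPKM in control, so IRDC libraries held 18.3% and imDC libraries 41.8% of the control mean. Each of the 18 passed the test in all 3 comparisons. Among all genes tested, 51.5% were lower in IRDC than in control, 40.1% lower in imDC than in control and 38.6% lower in IRDC than in imDC. The 3-step order, with every IRDC library below every imDC library and every imDC library below every control library, was seen for 18 of 18 enzymes against 20.0% of all genes tested. The sums of the adipocyte and macrophage markers above also run in this order, though the macrophage markers Cd14 and Mrc1 had its reverse. The part of those cell types in the result was not tested.

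**Figure D1:**
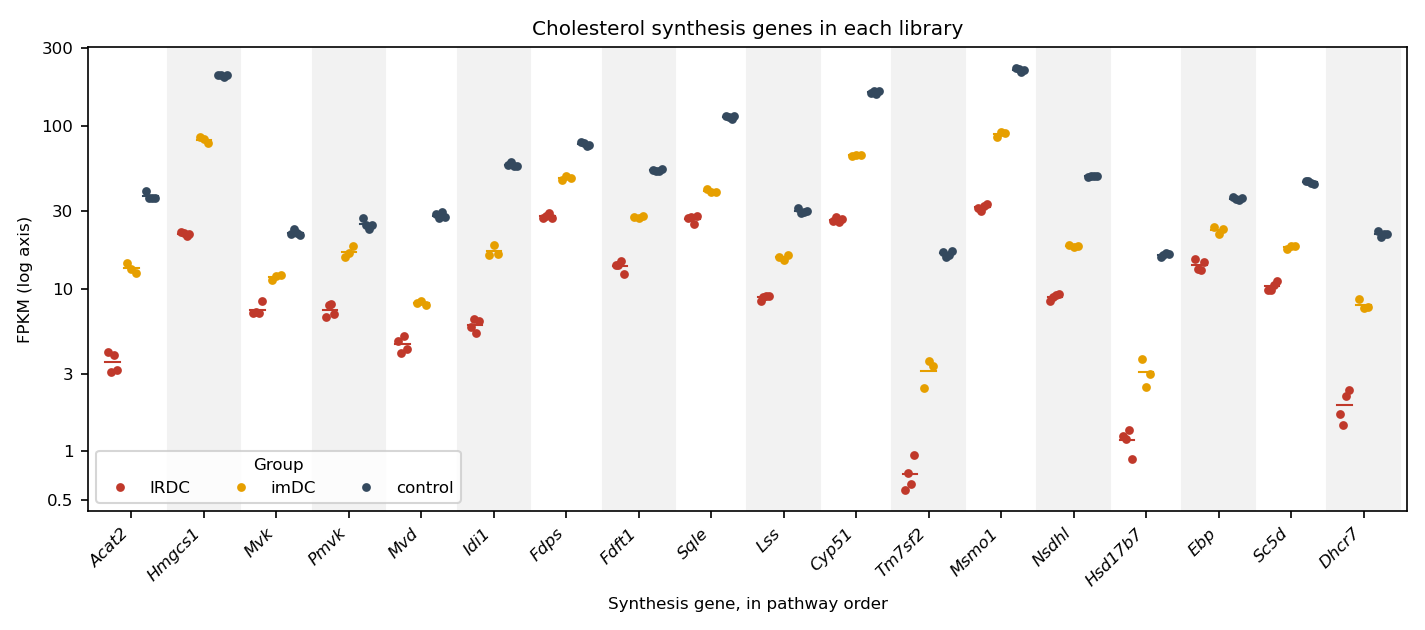
FPKM (log axis) of the 18 synthesis enzymes in each library, with IRDC, imDC and control in different colours and a horizontal line at each group mean. For every enzyme the 4 IRDC points lie lowest, the 3 imDC points between and the 4 control points highest, and the points of a group lie close together.

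Tm7sf2, a sterol C14 reductase, showed the largest change of the 18 between IRDC and control. Its level was 0.579, 0.732, 0.629 and 0.943 FPKM in the 4 IRDC libraries, 2.45, 3.57 and 3.35 in the imDC libraries, and 16.7, 15.8, 16.2 and 17.1 in the control libraries. IRDC libraries are therefore all below 1 FPKM, the gene was kept for the test through its imDC and control levels, and the groups do not overlap. The log2 change was -3.35 (SE 0.09) for IRDC against control, -2.09 (SE 0.10) for imDC against control and -1.25 (SE 0.10) for IRDC against imDC, with limma adjusted p of 3.89e-12, 2.28e-09 and 3.87e-07. These values rest on few reads in IRDC, the lowest being 27 reads in replicate 1, the smallest read number of any of the 18 genes in any library.

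Hmgcs1 makes HMG-CoA, an early intermediate of the mevalonate steps. Its level was 22.2, 22.0, 21.1 and 21.7 FPKM in IRDC, 85.5, 82.9 and 79.1 in imDC, and 206, 205, 199 and 207 in control. Every group is tight and the steps between groups are far larger than the spread within them. The log2 change was -3.17 (SE 0.03; adjusted p = 5.41e-17) for IRDC against control, -1.30 (SE 0.03; adjusted p = 1.41e-12) for imDC against control, and -1.87 (SE 0.03; adjusted p = 8.09e-14) for IRDC against imDC. It was also among the best measured, with 16344 reads in control replicate 3.

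Acat2 encodes the cytosolic acetoacetyl-CoA thiolase that starts the route. It had 4.08, 3.05, 3.91 and 3.17 FPKM in IRDC, 14.4, 13.1 and 12.5 in imDC, and 40.1, 36.2, 36.2 and 35.9 in control. IRDC levels were 9.58% of control and 26.6% of imDC, with log2 changes of -3.07 (SE 0.08) and -1.66 (SE 0.08). RefSeq names 3 near copies of Acat2, and one of them, Acat2l1, was listed at 2.13 to 2.19 FPKM in IRDC, 3.10 to 5.16 in imDC and 8.80 to 9.74 in control. How reads of near copies were divided is not given in the sources used here, so the level of Acat2 is uncertain to that extent. The same holds for Idi1, Fdps, Cyp51 and Nsdhl, each of which has at least 1 named pseudogene.

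Idi1, the isomerase that supplies dimethylallyl diphosphate for isoprenoid chains, had 5.81, 6.50, 5.35 and 6.31 FPKM in IRDC, 16.1, 18.5 and 16.4 in imDC, and 57.7, 59.7, 56.4 and 56.6 in control. The imDC libraries here lie nearer to IRDC than to control. Log2 changes were -3.07 (SE 0.06) for IRDC against control, -1.71 (SE 0.06) for imDC against control and -1.36 (SE 0.06) for IRDC against imDC.

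Among the rest of the mevalonate steps, mevalonate diphosphate decarboxylase Mvd was at 16.2% of its control level in IRDC. The kinases Pmvk and Mvk were at 29.8% and 33.7%, and Fdps, which joins the isoprenoid units to farnesyl diphosphate, was at 35.8%. Pmvk was the enzyme closest to control in imDC, at 16.8 ± 1.32 FPKM in imDC (SD, n = 3) and 24.9 ± 1.56 in control (SD, n = 4), a log2 change of -0.54 (SE 0.07; adjusted p = 3.26e-05). It fell further in IRDC, to 7.41 ± 0.69 FPKM (SD, n = 4), which was 44.1% of its imDC level.

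Past farnesyl diphosphate, squalene synthase Fdft1 was at 25.7% of control in IRDC. Squalene epoxidase Sqle, an early oxygen-requiring step often counted as a control point of the route, was at 23.6%, and lanosterol synthase Lss, which closes the sterol rings, was at 29.4%. Sqle differed least between the 2 medium groups, at 26.9 ± 1.32 FPKM in IRDC (SD, n = 4) and 39.8 ± 0.87 in imDC (SD, n = 3), a log2 change of -0.55 (SE 0.04; adjusted p = 5.29e-08), against 114 ± 1.98 in control (SD, n = 4). Its distance from control was thus already large in imDC, at -1.49 (SE 0.04) on the log2 scale.

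The enzymes that trim and reduce lanosterol fell by unequal amounts. Lanosterol demethylase Cyp51 was at 16.4% of control in IRDC, and the C4 demethylation enzymes Msmo1 and Nsdhl were at 14.3% and 18.1%. Hsd17b7, the ketosteroid reductase of the same complex, was at 7.24%, with 1.17 ± 0.19 FPKM in IRDC (SD, n = 4), 3.05 ± 0.61 in imDC (SD, n = 3) and 16.2 ± 0.44 in control (SD, n = 4). Dhcr7, which makes cholesterol from its immediate precursor 7-dehydrocholesterol, was at 8.85% of control in IRDC and 24.2% of imDC. Sc5d, the desaturase acting just before it, was at 23.0% of control, while the isomerase Ebp kept the largest share, 39.1%.

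The 2 arms of the route had similar medians. The median log2 change between IRDC and control was -2.39 over the 7 mevalonate-arm genes (lowest -3.17, highest -1.45) and -2.34 over the 11 squalene and sterol genes (lowest -3.35, highest -1.30). For imDC against control the medians were -1.30 and -1.31, and for IRDC against imDC -1.08 and -0.96. Over all 18 genes the median was -2.37 for IRDC against control, -1.30 for imDC against control and -0.96 for IRDC against imDC. Relative to the median of all genes these are -2.19, -1.21 and -0.87.

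A log2 change of at least 1 downward was reached by 18 of 18 enzymes between IRDC and control, where 9.77% of all genes tested did so. Between imDC and control 12 did so, with a background of 2.98%; the 6 with smaller changes were Mvk, Pmvk, Fdps, Fdft1, Lss and Ebp. Between IRDC and imDC 8 did so, with a background of 3.46%: Hmgcs1, Acat2, Dhcr7, Msmo1, Idi1, Cyp51, Tm7sf2 and Pmvk. This last list depends on the scale: with a pseudocount of 0.1 in place of 1 it held 11 genes, with Hsd17b7 (-1.31), Nsdhl (-1.03) and Fdft1 (-1.01) added, and under quantile normalization it held 7, without Pmvk. Pmvk was 1.48 times lower in imDC than in control and 2.27 times lower in IRDC than in imDC. Sqle showed the opposite split, 2.86 times lower in imDC than in control and 1.48 times lower in IRDC than in imDC.

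**Figure D2:**
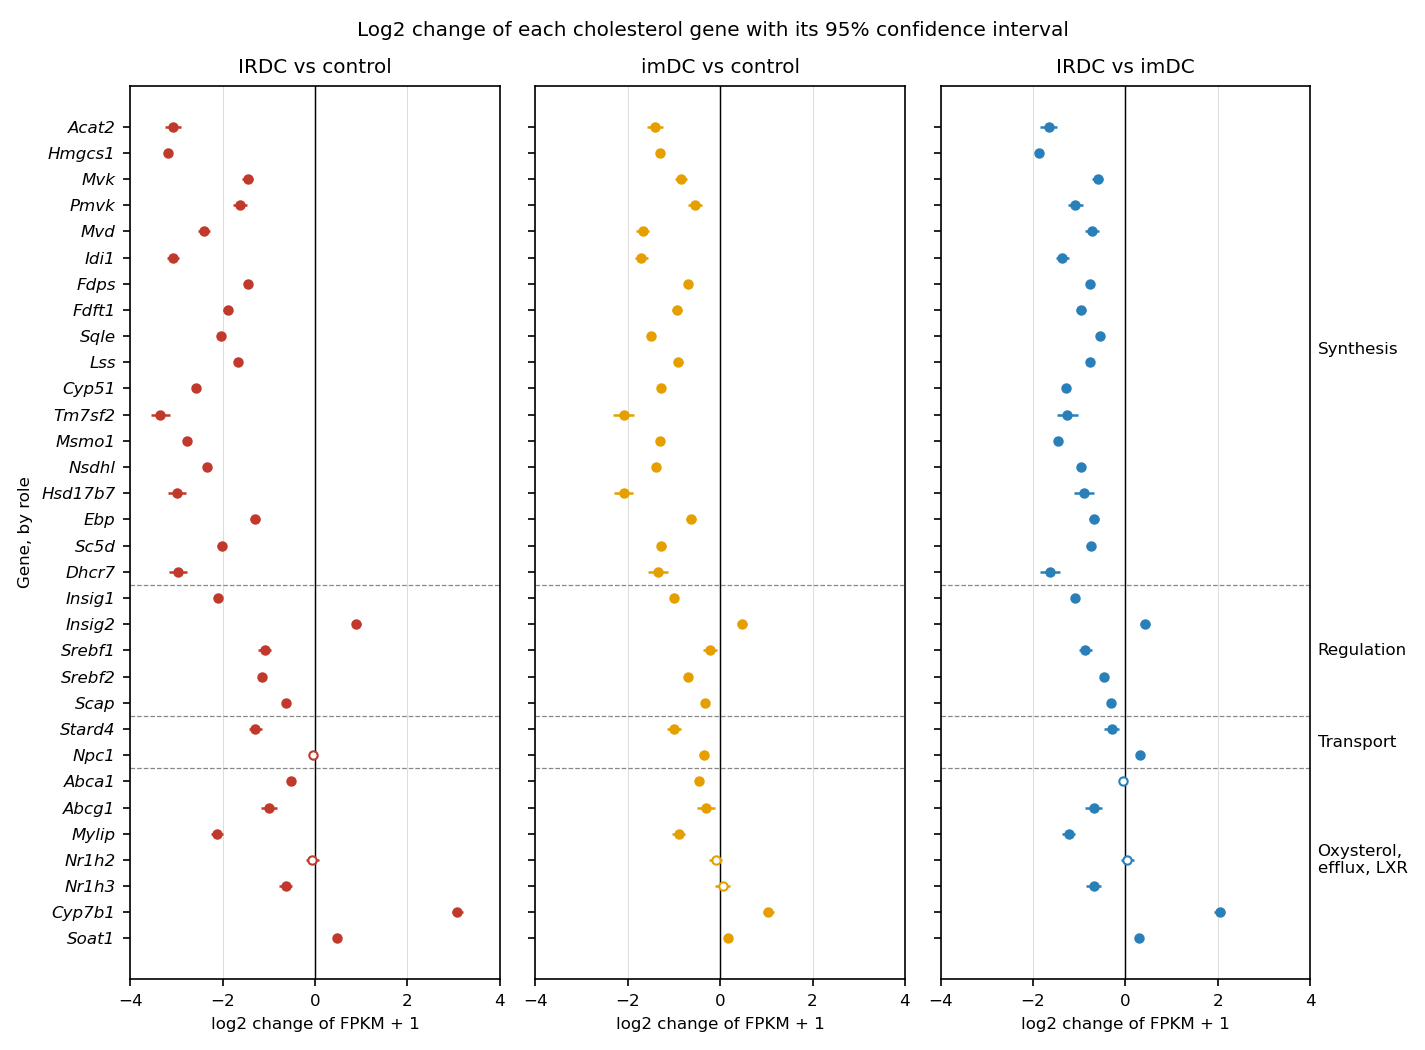
Log2 change of FPKM + 1 with its 95% confidence interval for all 32 genes, grouped by role, in the comparisons of IRDC with control, imDC with control and IRDC with imDC on a shared axis. All synthesis enzymes lie left of 0 in the 3 panels, and Insig2, Cyp7b1 and Soat1 lie right of 0 in all of them.

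The promoters of 26 of the 32 genes are in the RefSeq promoter table used here, which covers 250 bases before and 50 after the start on build GRCr8; Stard4, Pmvk, Abcg1, Fdft1, Sqle and Cyp7b1 have no entry. Because the synthesis genes moved together, the windows were searched on both strands for the sterol regulatory element core TCACNCCAC, bound by SREBPs, for CCAAT, the box of their usual partner NF-Y, and for the DR4 element, a spaced repeat read by LXRs. CCAAT was found in 12 of 15 synthesis promoters and 4 of 5 regulator promoters, against 37.5% of 33469 promoters in the table. Shares of all promoters here count every entry, also of genes that were not tested, and are not matched for expression. It was found in 2 of 5 promoters of the oxysterol, efflux and LXR genes. No promoter of the 26 held an exact sterol element core, which occurs in 1.12% of all promoters. With at most 1 mismatch it was found in 7 of 15 synthesis and 4 of 5 regulator promoters and in 0 of 5 of the oxysterol, efflux and LXR set, against 23.7% of all promoters. An exact DR4 element was in none of the 26 and in 0.00598% of all promoters. These are matches of letters, not measured binding sites.

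The promoters of 3 synthesis genes are shown as examples with several CCAAT boxes beside a near match to the sterol element core, each as the 250 bases before the start on the gene's strand. Hsd17b7 lies at chr13:84722755-84723004 on the minus strand, Msmo1 at chr16:29746863-29747112 on the plus strand and Nsdhl at chrX:155817110-155817359 on the plus strand. Capitals mark CCAAT or its reverse complement ATTGG, and each 9-base match to TCACNCCAC or its reverse complement with 1 mismatch.
Hsd17b7: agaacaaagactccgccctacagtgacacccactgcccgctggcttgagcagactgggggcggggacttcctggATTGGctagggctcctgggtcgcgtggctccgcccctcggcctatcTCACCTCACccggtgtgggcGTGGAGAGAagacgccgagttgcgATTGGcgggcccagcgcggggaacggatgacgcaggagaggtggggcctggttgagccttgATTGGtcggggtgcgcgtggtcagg
Msmo1: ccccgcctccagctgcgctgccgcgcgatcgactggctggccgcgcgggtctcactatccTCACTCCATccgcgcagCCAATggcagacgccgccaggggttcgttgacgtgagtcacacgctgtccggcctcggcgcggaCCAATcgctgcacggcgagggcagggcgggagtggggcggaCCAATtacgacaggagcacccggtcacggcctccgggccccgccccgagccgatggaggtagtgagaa
Nsdhl: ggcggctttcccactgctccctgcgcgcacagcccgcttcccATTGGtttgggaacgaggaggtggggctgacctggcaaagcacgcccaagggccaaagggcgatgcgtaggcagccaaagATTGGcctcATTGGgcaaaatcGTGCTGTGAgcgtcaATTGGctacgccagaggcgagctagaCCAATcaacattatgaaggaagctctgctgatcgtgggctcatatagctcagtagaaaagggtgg
Hsd17b7 holds 3 CCAAT boxes and 2 near matches, the latter beginning at positions -130 and -110 with the start base as 0. Msmo1 holds 3 boxes and 1 near match at -190, and Nsdhl 5 boxes and 1 near match at -106. All 3 genes were at or below 18.1% of control in IRDC. Fdps and Ebp also hold both marks, yet kept 35.8% and 39.1% of control. Tm7sf2, at 4.38%, has no near match in its window, and Dhcr7 has neither mark. Whether the letters go with the size of the change was not tested.

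**Figure D3:**
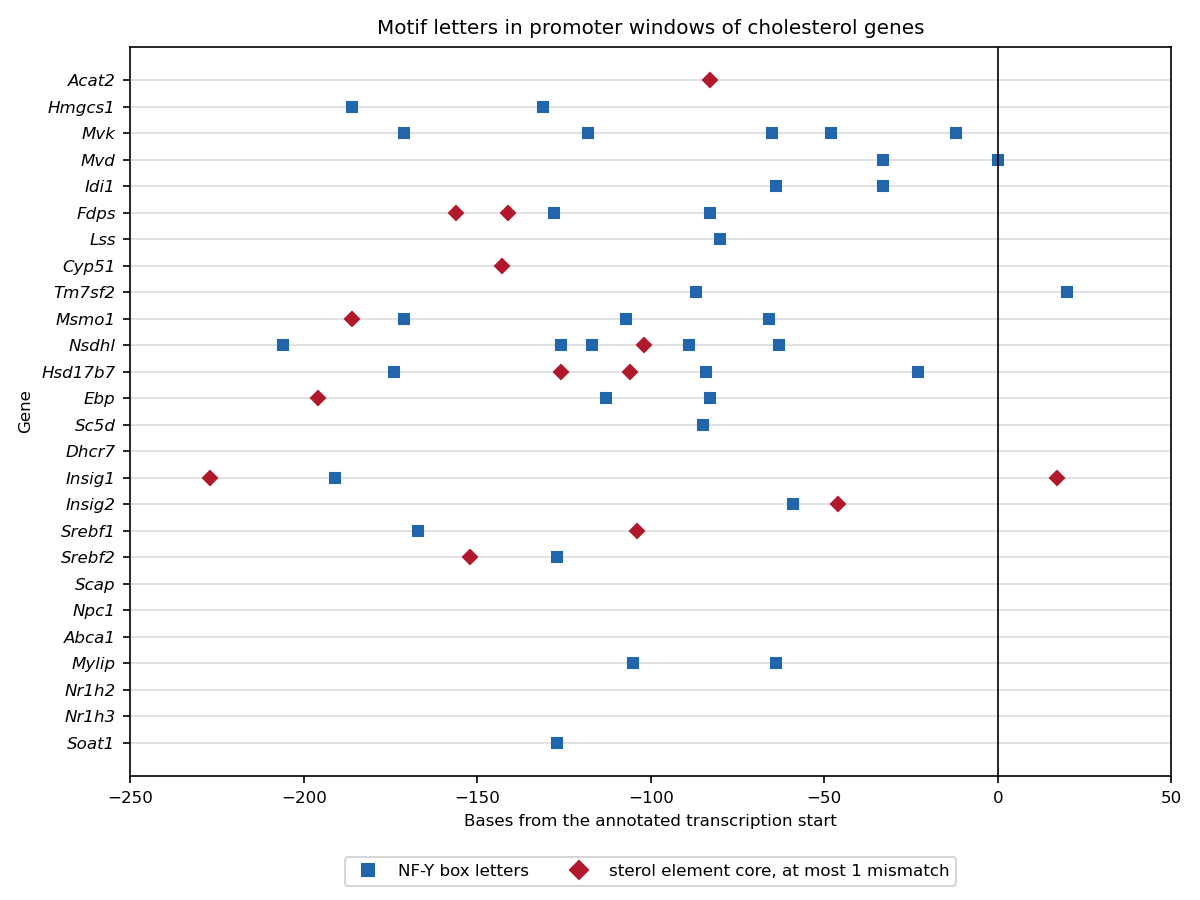
Position of CCAAT boxes and of near matches (1 mismatch) to the sterol element core in the promoter windows, in bases from the start, with a row for each of the 26 genes that has an entry. Rows of synthesis genes carry most of the boxes, and rows with no mark had no match.

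Of the 5 regulators, 4 were lower and Insig2 was higher in IRDC than in control, each past the threshold, and the same directions held between imDC and control and between IRDC and imDC. In those 3 comparisons 51.5%, 40.1% and 38.6% of all genes tested were lower, and 24.5%, 23.1% and 20.2% were higher. Insig1, which is itself an SREBP target and retains SCAP in the endoplasmic reticulum, had 33.4, 32.2, 31.1 and 33.9 FPKM in IRDC, 69.2, 69.2 and 73.0 in imDC, and 144, 143, 144 and 140 in control. The groups are well apart, with imDC near the middle. Log2 changes were -2.09 (SE 0.03; adjusted p = 4.78e-15) for IRDC against control, -1.01 (SE 0.03; adjusted p = 3.61e-11) for imDC against control and -1.09 (SE 0.03; adjusted p = 2.40e-11) for IRDC against imDC.

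Insig2, the other SCAP-retaining protein, went the opposite way. It had 37.1, 40.1, 36.5 and 39.7 FPKM in IRDC, 28.0, 26.9 and 30.2 in imDC, and 19.6, 20.4, 21.4 and 19.1 in control. The order of the groups is the reverse of that of Insig1, again with no overlap, which in the upward direction was seen in 22.6%, 23.0% and 20.5% of all genes tested between IRDC and control, imDC and control, and IRDC and imDC. Log2 changes were 0.90 (SE 0.05; adjusted p = 2.19e-09), 0.47 (SE 0.05; adjusted p = 4.40e-06) and 0.42 (SE 0.05; adjusted p = 1.53e-05) for IRDC against control, imDC against control and IRDC against imDC. In IRDC the mean levels were thus 32.6 ± 1.26 FPKM for Insig1 and 38.3 ± 1.81 FPKM for Insig2, while in control they were 143 ± 2.00 FPKM for Insig1 and 20.1 ± 1.01 FPKM for Insig2 (SD, n = 4 each).

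The promoters of this pair, which moved in opposite directions, both hold a CCAAT box and a near match to the sterol element core. Insig1 lies at chr4:8057770-8058019 and Insig2 at chr13:35040099-35040348, both on the minus strand, printed with the same marks as above.
Insig1: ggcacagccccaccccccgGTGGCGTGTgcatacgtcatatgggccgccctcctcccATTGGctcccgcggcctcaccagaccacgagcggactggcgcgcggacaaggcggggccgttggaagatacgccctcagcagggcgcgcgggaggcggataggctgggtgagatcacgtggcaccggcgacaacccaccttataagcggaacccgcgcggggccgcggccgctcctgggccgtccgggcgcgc
Insig2: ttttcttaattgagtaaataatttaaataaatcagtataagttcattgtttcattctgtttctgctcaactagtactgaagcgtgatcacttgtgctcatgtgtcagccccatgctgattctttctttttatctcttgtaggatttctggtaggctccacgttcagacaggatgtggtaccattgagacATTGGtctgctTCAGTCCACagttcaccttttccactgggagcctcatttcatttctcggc
In these 250 bases each holds 1 box and 1 near match. The near match begins at -231 in Insig1 and at -50 in Insig2, and Insig1 has another at position 13, past the printed stretch.

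Srebf2, which encodes SREBP2, had 15.3, 15.7, 15.7 and 16.6 FPKM in IRDC, 22.1, 22.6 and 21.4 in imDC, and 36.6, 35.3, 37.3 and 36.8 in control. It fell in both medium groups, and further in IRDC, with log2 changes of -1.16 (SE 0.03; adjusted p = 3.92e-12) for IRDC against control, -0.70 (SE 0.03; adjusted p = 3.02e-09) for imDC against control and -0.45 (SE 0.03; adjusted p = 2.56e-07) for IRDC against imDC. Scap, the escort of SREBPs, changed least of the 5 between IRDC and control, to 18.2 ± 0.83 FPKM in IRDC (SD, n = 4) and 22.7 ± 0.82 in imDC (SD, n = 3), against 28.7 ± 0.69 in control (SD, n = 4).

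Srebf1, which encodes the SREBP1 forms that chiefly drive fatty acid synthesis and is an LXR target in liver, followed another course. It had 7.23, 7.38, 8.47 and 7.32 FPKM in IRDC, 15.2, 13.4 and 15.5 in imDC, and 16.3, 17.1, 18.9 and 17.1 in control. IRDC libraries are far below both other groups, whose libraries lie close to each other. The log2 change was -1.09 (SE 0.06; adjusted p = 5.49e-09) for IRDC against control and -0.87 (SE 0.07; adjusted p = 3.03e-07) for IRDC against imDC. For imDC against control it was -0.23 (SE 0.07; adjusted p = 0.0112), and this call was lost without imDC replicate 2 (-0.16, adjusted p = 0.0623) and under TMM-like scaling (-0.11, adjusted p = 0.138).

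**Figure D4:**
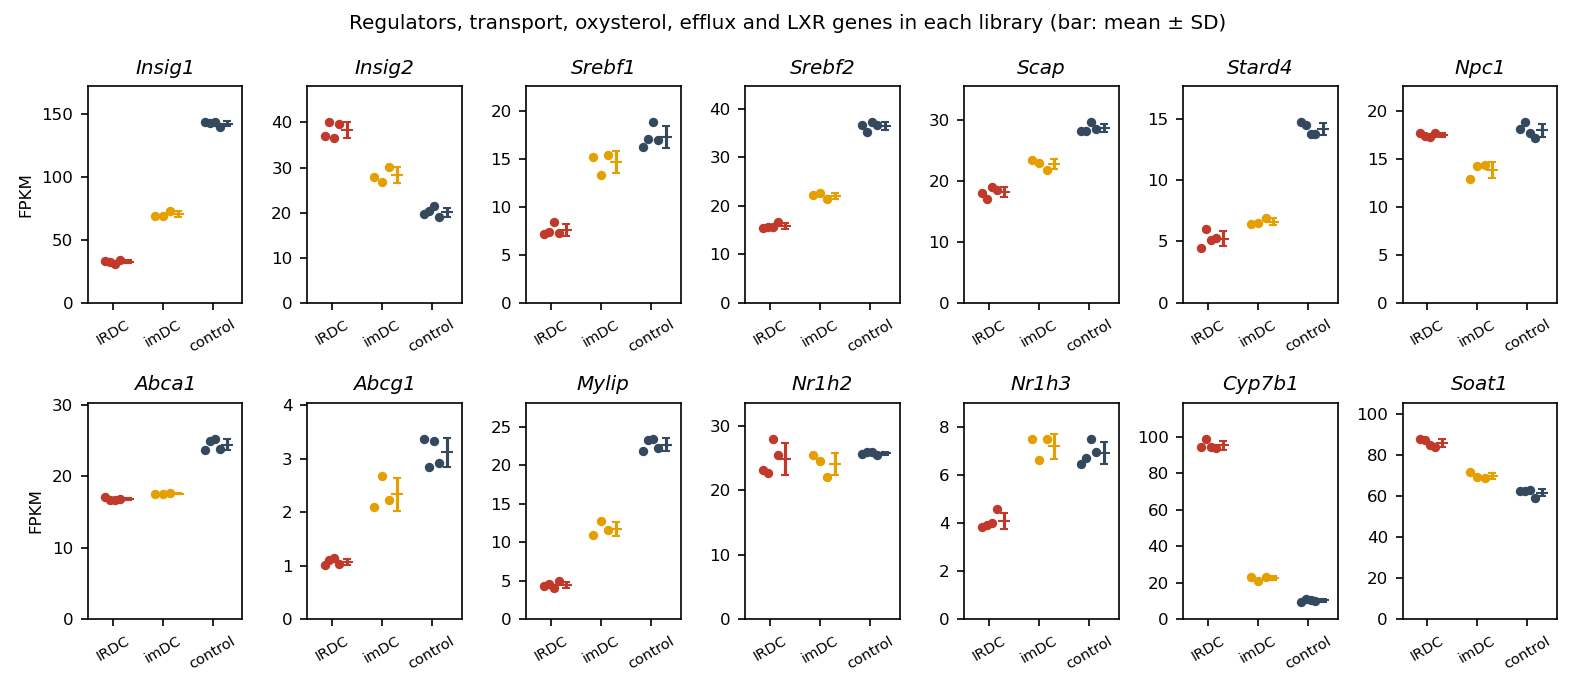
FPKM (linear axis for each gene) in each library of the 14 genes of sterol regulation, transport and the oxysterol, efflux and LXR set, with IRDC, imDC and control from left to right and bars for the mean ± SD. Cyp7b1 spans the widest range, and Npc1 and Nr1h2 show overlapping IRDC and control points.

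The 2 transporters differed from each other. Stard4, a soluble carrier of sterols between membranes, had 4.48, 6.01, 5.15 and 5.29 FPKM in IRDC, 6.43, 6.53 and 6.91 in imDC, and 14.7, 14.5, 13.8 and 13.8 in control. Both medium groups lie well below control, with IRDC only a little below imDC. The log2 change was -1.29 (SE 0.07; adjusted p = 1.87e-09) for IRDC against control, -0.99 (SE 0.07; adjusted p = 1.11e-07) for imDC against control and -0.30 (SE 0.07; adjusted p = 0.00355) for IRDC against imDC. The last did not pass under quantile normalization (-0.16, adjusted p = 0.0910).

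Npc1, which exports cholesterol from late endosomes and lysosomes, had 17.7, 17.4, 17.3 and 17.7 FPKM in IRDC, 12.9, 14.3 and 14.3 in imDC, and 18.1, 18.8, 17.7 and 17.2 in control. IRDC and control libraries overlap and imDC libraries lie below both. It was lower in imDC than in control, with a log2 change of -0.35 (SE 0.04; adjusted p = 1.46e-05), and higher in IRDC than in imDC, at 0.32 (SE 0.04; adjusted p = 4.30e-05). Between IRDC and control the log2 change was -0.03 with a 95% confidence interval of -0.12 to 0.05 (adjusted p = 0.445), and its sign depends on the scaling: it was 0.16 under TMM-like scaling (adjusted p = 0.00378) and 0.11 under quantile normalization (adjusted p = 0.0308).

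The 7 genes of oxysterol metabolism, esterification, efflux and the LXRs did not move one way. Between IRDC and control, 2 were higher (Cyp7b1 and Soat1), 4 were lower (Mylip, Abcg1, Nr1h3 and Abca1) and Nr1h2 did not pass. Between imDC and control 2 were higher and 3 lower, with Nr1h2 and Nr1h3 not passing, and between IRDC and imDC 2 were higher and 3 lower, with Abca1 and Nr1h2 not passing. Set against backgrounds of 76.0%, 63.2% and 58.8% called in either direction, 6, 5 and 5 of 7 is near what all genes show. Cyp7b1 stands out by size, since an upward log2 change of at least 1 between IRDC and control was found in 6.01% of all genes tested; the share was 3.89% between imDC and control and 1.69% between IRDC and imDC, where Cyp7b1 also exceeded 1.

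Cyp7b1 encodes the oxysterol 7-alpha-hydroxylase, which inactivates 25- and 27-hydroxycholesterol. Its level was 94.4, 99.1, 94.3 and 93.7 FPKM in IRDC, 23.4, 21.1 and 22.9 in imDC, and 9.35, 11.3, 10.7 and 10.2 in control. The 3 groups are far apart, with IRDC well above the others. The mean in IRDC was 9.18 times that in control and 4.24 times that in imDC, and the mean in imDC was 2.16 times that in control. Log2 changes were 3.08 (SE 0.05; adjusted p = 2.26e-14) for IRDC against control, 1.05 (SE 0.05; adjusted p = 5.20e-09) for imDC against control and 2.04 (SE 0.05; adjusted p = 1.22e-11) for IRDC against imDC. Between IRDC and imDC this change stood at percentile 99.9 of all genes tested.

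Soat1, which esterifies cholesterol for storage in lipid droplets, was also higher. It had 88.0, 87.1, 84.7 and 84.1 FPKM in IRDC, 71.6, 69.1 and 68.9 in imDC, and 62.4, 62.2, 62.8 and 59.2 in control. The steps are small but the groups do not overlap. The log2 change was 0.47 (SE 0.03; adjusted p = 2.70e-09) for IRDC against control, 0.18 (SE 0.03; adjusted p = 0.000107) for imDC against control and 0.30 (SE 0.03; adjusted p = 1.45e-06) for IRDC against imDC.

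Mylip fell the most of the 7. It had 4.27, 4.53, 4.06 and 4.95 FPKM in IRDC, 11.0, 12.7 and 11.5 in imDC, and 21.9, 23.2, 23.4 and 22.2 in control. Its groups are ordered as those of the synthesis enzymes and do not overlap. Log2 changes were -2.12 (SE 0.06; adjusted p = 3.61e-12) for IRDC against control, -0.90 (SE 0.06; adjusted p = 9.13e-08) for imDC against control and -1.22 (SE 0.06; adjusted p = 6.07e-09) for IRDC against imDC. Its promoter at chr17:19514472-19514721, minus strand, is shown with the same marks because the gene fell like a synthesis gene. It holds 2 CCAAT boxes and no near match to the sterol element core. The other promoter of this set with a CCAAT box is that of Soat1, which was higher in both medium groups than in control. Whether the box goes with the direction of change was not tested.
Mylip: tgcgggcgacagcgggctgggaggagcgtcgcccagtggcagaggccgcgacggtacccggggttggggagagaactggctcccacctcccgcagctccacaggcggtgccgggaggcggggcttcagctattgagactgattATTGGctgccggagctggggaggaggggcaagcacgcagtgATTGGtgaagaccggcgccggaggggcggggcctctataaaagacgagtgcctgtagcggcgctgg

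Abcg1, which passes cholesterol to high-density lipoprotein, was low throughout, with 1.01, 1.11, 1.14 and 1.03 FPKM in IRDC, 2.10, 2.69 and 2.23 in imDC, and 3.38, 2.84, 3.34 and 2.92 in control. The 3 groups do not overlap. Its log2 change was -0.99 (SE 0.08; adjusted p = 1.42e-07) for IRDC against control, -0.31 (SE 0.08; adjusted p = 0.00731) for imDC against control and -0.68 (SE 0.08; adjusted p = 2.08e-05) for IRDC against imDC. Abca1, which loads cholesterol onto apolipoprotein A-I, was low in both medium groups. It averaged 16.8 ± 0.18 FPKM in IRDC (SD, n = 4), 17.6 ± 0.06 in imDC (SD, n = 3) and 24.4 ± 0.82 in control (SD, n = 4). The log2 change from control was -0.51 (SE 0.03; adjusted p = 6.00e-09) in IRDC and -0.45 (SE 0.03; adjusted p = 9.56e-08) in imDC. IRDC and imDC differed by -0.06 (95% confidence interval -0.13 to 0.01; adjusted p = 0.122).

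The 2 LXR genes also differed. Nr1h3, which encodes LXR-alpha, had 3.82, 3.93, 4.01 and 4.59 FPKM in IRDC, 7.46, 6.59 and 7.50 in imDC, and 6.43, 6.68, 7.50 and 6.93 in control. IRDC libraries lie below both other groups, and those overlap. The log2 change was -0.63 (SE 0.07; adjusted p = 1.95e-06) for IRDC against control and -0.69 (SE 0.07; adjusted p = 4.21e-06) for IRDC against imDC, while imDC and control differed by 0.05 (95% confidence interval -0.10 to 0.21; adjusted p = 0.533). Nr1h2, which encodes the widely expressed LXR-beta, averaged 24.8 ± 2.41 FPKM in IRDC (SD, n = 4), 24.0 ± 1.72 in imDC (SD, n = 3) and 25.7 ± 0.20 in control (SD, n = 4). It passed in none of the 3 comparisons as fitted here, and its sign between IRDC and control turned under TMM-like scaling, to 0.15 (adjusted p = 0.0365), and under quantile normalization, to 0.07 (adjusted p = 0.290).

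Set beside each other, the 18 synthesis genes, commonly counted as SREBP2 targets, and the 7 oxysterol, efflux and LXR genes were unlike in uniformity and size. SREBP2 activity was not measured. The median log2 change between IRDC and control was -2.37 over the 18 genes and -0.51 over the 7, against -0.18 over all genes tested. For imDC against control the medians were -1.30 and -0.10, and for IRDC against imDC -0.96 and -0.06. The range over the 7 was wide, with -2.12 for Mylip and 3.08 for Cyp7b1 between IRDC and control, while no synthesis gene had a log2 change above -1.30. Of the 7, 3 (Mylip, Abcg1 and Abca1) shared the step order of the synthesis genes, 2 (Cyp7b1 and Soat1) had its reverse, and Nr1h2 and Nr1h3 had neither. The order of the synthesis genes was found in 20.0% of all genes tested and its reverse in 9.74%. For Abca1 the difference between IRDC and imDC did not pass the threshold. Its sign there turned under TMM-like scaling and quantile normalization. The summed level of the 7 was 150% of control in IRDC, where Cyp7b1 alone had 95.4 against 10.4 FPKM, and 100% of control in imDC.

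**Figure D5:**
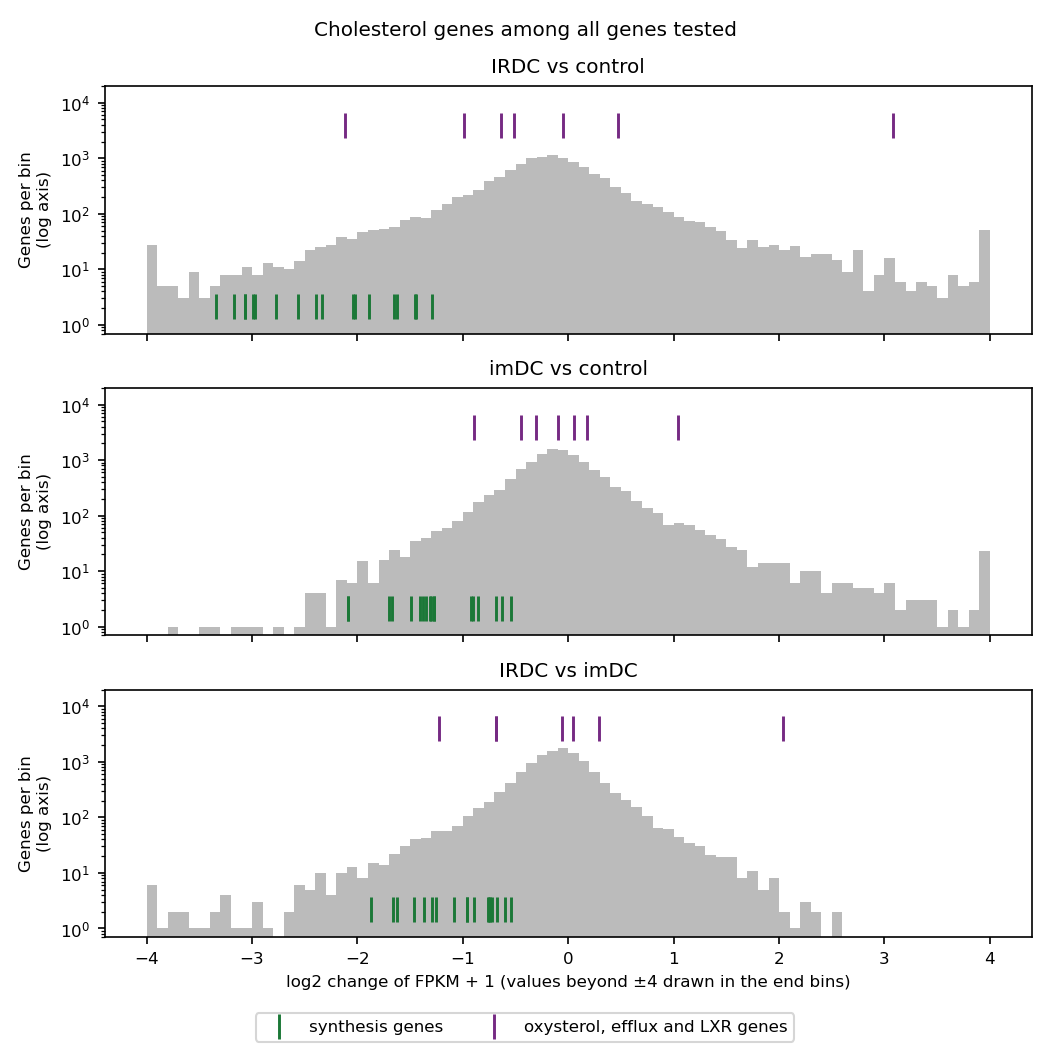
Distribution of the log2 change of FPKM + 1 over all 12521 genes tested in each comparison, with ticks for the 18 synthesis genes and the 7 oxysterol, efflux and LXR genes. The synthesis genes lie in the lower tail, with medians of -2.37, -1.30 and -0.96, and Cyp7b1 lies in the upper tail.

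Other genes of the same pathways, listed by name beside the 32, are to be read against the shares of all genes tested: 51.5% lower and 24.5% higher in IRDC than in control, 40.1% and 23.1% in imDC than in control, and 38.6% and 20.2% in IRDC than in imDC. Of 10 further synthesis and SREBP-processing genes, 5 were lower and 2 higher in IRDC than in control, 5 lower and 2 higher in imDC than in control, and 4 lower and 3 higher in IRDC than in imDC, near those shares. The highest changes between IRDC and control were those of the site-2 protease gene Mbtps2 (0.21) and of Ggps1 (0.15), which makes geranylgeranyl diphosphate.

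Of 11 further uptake and transport genes, 10 could be tested. Of these, 5 were lower and 4 higher in IRDC than in control, 5 lower and 2 higher in imDC than in control, and 4 lower and 2 higher in IRDC than in imDC. For lower genes these counts are near the shares of all genes. The HDL receptor gene Scarb1 had 6.30 ± 0.32 FPKM in IRDC (SD, n = 4), 14.7 ± 0.21 in imDC (SD, n = 3) and 26.9 ± 1.00 in control (SD, n = 4), and its log2 change between IRDC and control was -1.94 (SE 0.04; adjusted p = 2.37e-13). Gramd1c, of a family that moves cholesterol out of the plasma membrane, was higher in IRDC than in control by 0.45 (SE 0.09; adjusted p = 0.000807).

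Of 14 further oxysterol, efflux and LXR genes, 9 could be tested, and the other 5 (Apoa1, Abcg4, Abcg5, Abcg8 and Soat2) were below 1 FPKM in every library. Of these, 7 were lower and 1 higher in IRDC than in control, 7 lower and 1 higher in imDC than in control, and 5 lower and 0 higher in IRDC than in imDC, beside shares of 51.5%, 40.1% and 38.6% of all genes for the lower direction. The lowest were Pltp, the phospholipid transfer protein, with 6.60 ± 1.01 FPKM in IRDC (SD, n = 4), 18.1 ± 0.79 in imDC (SD, n = 3) and 35.9 ± 1.36 in control (SD, n = 4), and Apoe, the lipoprotein ligand, with 204 ± 6.63, 289 ± 8.16 and 517 ± 7.85 FPKM in the same groups. Ch25h, which makes 25-hydroxycholesterol, was the one that rose, with 3.69 ± 0.76 FPKM in IRDC, 4.77 ± 0.48 in imDC and 1.72 ± 0.39 in control. Its log2 change was 0.78 (SE 0.12; adjusted p = 9.03e-05) for IRDC against control and 1.10 (SE 0.13; adjusted p = 1.57e-05) for imDC against control, and IRDC and imDC did not differ past the threshold (-0.31, SE 0.13, adjusted p = 0.0653). Pltp and Apoe are LXR targets in mouse macrophages. The summed macrophage markers given above ran in the same order, at 58.9% of control in IRDC and 95.9% in imDC. Single markers did not all do so: of the 14 tested, 7 were lower and 5 higher in imDC than in control. Over all genes tested, those shares were 40.1% and 23.1%. Cd14 and Mrc1 had the reverse order, highest in IRDC and lowest in control. The part of macrophages in the result was not tested.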

How the data were processed

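RNA-seq of 11 rat BMSC libraries was analysed. The deposited table holds FPKM values made by the authors. The submitters' processing notes name genome build rn6, the aligner STAR 2.7.1a, the counter HTSeq 0.13.5 and Cufflinks 0.17.3 (also cutadapt 1.18 and FastQC 0.11.9 for the reads, with SAMtools 1.3.1); which of them made the FPKM values, and whether strand was used, is not given in the sources used here. Whole reads were recovered from the FPKM steps (all 21487 genes that are not 0 throughout gave whole numbers within 0.1 read at a tolerance of 1e-08) and served for depth and for an alternative fit only; intervals from them would cover counting error only.

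A pseudocount of 1 was added before taking log2, lines reaching 1 FPKM in 3 or more libraries were kept (12521 of 32883, of which 388 have no gene name), and the 11 libraries were fitted together in limma 3.58.1 (lmFit, eBayes with a trend; R 4.3.3) with no block. P-values of a contrast were adjusted over all genes tested (Benjamini-Hochberg); 0.05 was the threshold. The procedure was tested on simulated data in which few genes changed, equally up and down. That test cannot show how the procedure behaves where most genes change, as in these data. Same-numbered libraries of different groups did not deviate together (Pearson's r of deviations -0.05 to 0.07), so the numbers were not taken as pairs.

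The 32 genes and all lists were chosen with earlier results of these data known. Values are given per library for the 4 genes of each role with the largest change between IRDC and control and for any that went against its role; further pathway genes are counted, and at most the 2 highest and 2 lowest of each list are named; some of these genes are counted in their list but not reported here by name. Promoters come from RefSeq (GRCr8); the first entry was used for the 1 gene with 2. Allowing 1 mismatch in the sterol element was chosen after seeing the data. Alternatives were quantile normalization, TMM-like scaling, pseudocounts of 0.1 and 0.5, a filter at 5 FPKM or none, only the libraries compared, the replicate block, no trend, array weights, voom on recovered reads, summing lines that share a name, and leaving out each library. Col1a2 and Pecam1, listed as markers, were not used here.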

Additional observations from a re-analysis of the deposited data

Results flagged for a closer look

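Single libraries stood apart from the other 3 of their group in 6 of 64 groups of 4 libraries (32 genes in IRDC and in control), where its gap to the nearest other library, over the range of the group, passed Dixon's 95% critical value. Chance alone gives such a flag in about 1 in 20 groups. Acat2 was highest in control replicate 1, at 40.1 FPKM, in a group whose lowest value was 35.9. Nsdhl was lowest in the same library, at 48.4 FPKM, in a group whose highest value was 49.6. Cyp7b1 was highest in IRDC replicate 2, at 99.1 FPKM, with the lowest IRDC value at 93.7. Mvk was highest in IRDC replicate 4, at 8.43 FPKM, with the lowest IRDC value at 7.06. Srebf1 was highest in IRDC replicate 3, at 8.47 FPKM, with the lowest IRDC value at 7.23. Soat1 was lowest in control replicate 4, at 59.2 FPKM, with the highest control value at 62.8. In each case the gap is small beside the difference between IRDC and control, and these calls stayed past the threshold when the library was left out.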

How the results depend on the processing

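Of the 30 genes called between IRDC and control, 30 stayed called in the same direction under every one of the 23 alternatives in which they could be fitted. Of the 30 called in each other comparison, 29 did so, the exceptions being Srebf1 for imDC against control (lost under TMM-like scaling and without imDC replicate 2) and Stard4 for IRDC against imDC (lost under quantile normalization). Under both rescalings 1 transporter, Npc1, was higher in IRDC than in control, at 0.16 (TMM-like) and 0.11 (quantile), and under quantile normalization 0 transporters were lower in IRDC than in imDC. Values near 0 that did not pass in the fit reported changed sign. Under TMM-like scaling Nr1h2 was 0.15 for IRDC against control and 0.017 for imDC against control, and Abca1 was 0.022 for IRDC against imDC. Under quantile normalization Nr1h2 was 0.069 for IRDC against control and Abca1 0.017 for IRDC against imDC. Nr1h2 for IRDC against imDC was -0.013 without IRDC replicate 3 and -0.011 without imDC replicate 3, and at most 0.086 without any 1 library. The median of the oxysterol, efflux and LXR genes relative to all genes changed sign for IRDC against imDC with no filter (-0.035), and for imDC against control with a 5 FPKM filter (0.067), with quantile normalization (0.013) and TMM-like scaling (0.00074), and without imDC replicate 3; leaving out each library gave -0.048 to 0.048, and the cause was not tested. Leaving out each library gave 9244 to 9489 genes called between IRDC and control, 7342 to 7890 between imDC and control and 6739 to 7340 between IRDC and imDC, with 18 synthesis genes lower in each. With the replicate number as a block, the counts were 9508, 7733 and 7110, against 9517, 7912 and 7362 without it, and it changed no call of the 32 genes. Depth limits mainly Tm7sf2 in IRDC, where 27 reads were the fewest.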
